A study of Mus musculus with 115 samples.

Results

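Liver transcripts were compared directly between mice given testosterone and mice given estradiol. The comparison takes every liver array labelled with either hormone, 20 of testosterone and 20 of estradiol, which is 40 of the 115 arrays of the study. The mice were of the C57BL/6J strain, with Sry, the testis-determining gene, deleted from the Y chromosome and in some genotypes carried as a transgene on another chromosome. XX and XY- mice lack Sry and develop ovaries, and XXSry and XY-Sry mice carry the transgene and develop testes. Each of these 4 genotypes gave 5 arrays per hormone, and the genotypes were weighted equally. Every mouse, of both treatments, lost its gonads at 75 days of age and at once received a capsule with testosterone (5 mM) or estradiol (50 µg), and liver was taken 3 weeks later. The 20 liver arrays of mice with a blank capsule took no part in the comparison, and their levels are given beside the results. The estradiol array XY- 5 was left out because its levels lay with the testosterone arrays: its Hsd3b5 level was 12.26 on the log2 scale, where testosterone arrays ranged from 11.15 to 12.95. This left 39 arrays. Because that array was recognised by transcripts reported here, leaving it out widens their separation, so counts and the differences of leading genes are also given with it under its label.

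Mouse liver is one of the most sexually dimorphic tissues in its transcripts. Growth hormone is released in pulses in males and more evenly in females, and its receptor signals through JAK2 and STAT5 to many sex-biased liver genes. Sex steroids set this release pattern through the hypothalamus and pituitary and can also act on hepatocytes, estradiol through estrogen receptor alpha (Esr1). Sex-biased targets include enzymes of steroid and drug metabolism, major urinary proteins, and regulators such as BCL6, higher in males, and CUX2, higher in females.

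The median raw intensity of an array was 125 to 154 with testosterone and 124 to 157 with estradiol. Of the 25697 probes, 31.8% to 39.0% were detected with testosterone and 33.4% to 38.5% with estradiol. Hepatocyte markers were high throughout, with a mean log2 level over 7 markers of 12.34 ± 0.15 in 20 testosterone arrays and 12.31 ± 0.13 (SD) in 19 estradiol arrays. The array labelled XY-Sry testosterone 5 had Eif2s3y, a Y-linked gene, at 4.53, within the range of the XX arrays (4.35 to 4.96) and below that of the other XY arrays (6.76 to 8.14). It was kept under its label. The arrays lay on 8 slides, read from the chip number in the labels. Only slides 4 and 6 held both hormones, with 4 arrays of each, so hormone and slide were separable there alone.

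Testosterone and estradiol parted a large share of the liver transcriptome. Of 10787 probes tested, limma called 2194 (20.3%) at an adjusted p under 0.05, of which 961 (8.91%) were higher with testosterone and 1233 (11.4%) higher with estradiol. At least 2-fold differences were fewer, 68 probes higher with testosterone and 138 higher with estradiol, or 1.91% of those tested. The median difference of all tested probes was 0.03 on the log2 scale; differences are testosterone minus estradiol, so those below 0 are higher with estradiol. Of the called probes, 1953 had the same sign in all 4 genotypes, and of the others 25.2% did. With the array XY- estradiol 5 included, 1931 probes (17.9%) were called. When arrays were scaled by their medians in place of quantiles, 1556 were called and 61.5% of them were higher with testosterone, in place of 43.8%, with the median of all probes at 0.13. Of the 102 named probes, none that was called under either scaling changed sign.

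Slides 4 and 6 gave a comparison within slides, and the other slides, with 12 testosterone and 11 estradiol arrays, gave a separate set of arrays. The labels do not say whether the mice were separate too. On slides 4 and 6 alone 1036 probes (9.60%) were called, with slide as a block. Of these, 971 (93.7%) had the same sign on the other slides, where 65.0% of all tested probes did, and 558 were called there too. Their median absolute difference was 0.71 on slides 4 and 6, and 0.54 in the same direction on the other slides. In the reverse order, 1204 probes (11.2%) were called on the other slides, and 1130 of them (93.9%) had the same sign on slides 4 and 6. With all 39 arrays and slide as a block, 1302 probes (12.1%) were called. The differences of that fit still came from slides 4 and 6, and the other arrays added only to the estimate of spread. It is thus no separate check on slide.

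**Figure D1:**
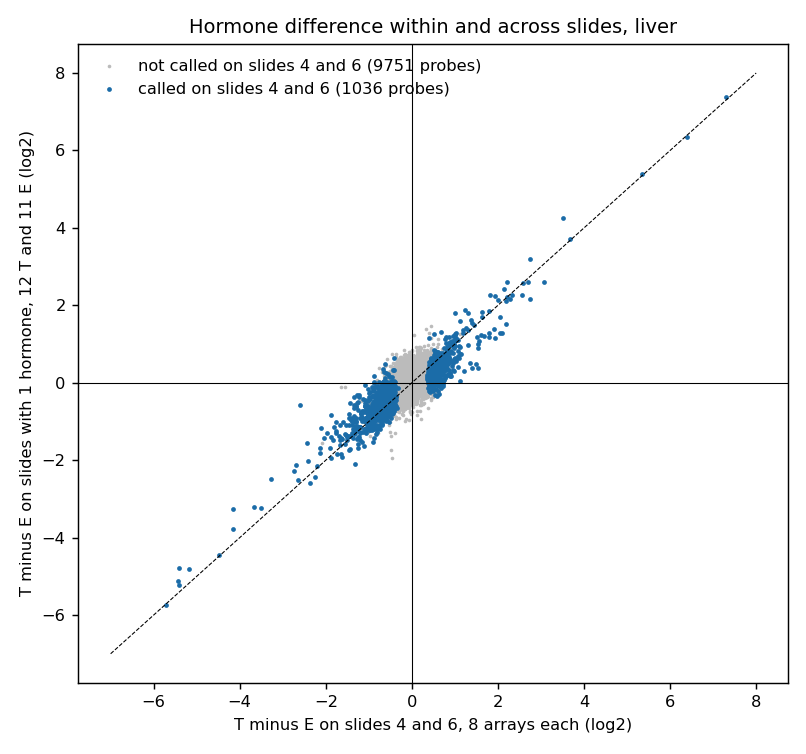
Log2 difference, testosterone minus estradiol, of each tested probe on slides 4 and 6 (horizontal) and on the slides that held 1 hormone (vertical); blue points are the 1036 probes called on slides 4 and 6 alone, and the dashed line marks equal differences. The largest differences lie near the line at both ends, and 971 of the blue points have the same sign on both axes.

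A stricter measure of separation is that no array of one hormone reaches the range of the other. Among the 39 arrays, 37 probes of 33 genes met it (0.343% of those tested). Testosterone arrays lay wholly above estradiol arrays for 17 probes of 16 genes (0.158%), and estradiol arrays wholly above testosterone arrays for 20 probes of 17 genes (0.185%). Of the 37 probes, 4 were detected in no testosterone array and 2 in no estradiol array. Others, such as BC014805 and Gm4956, were detected in few arrays of the dimmer hormone. A tested probe had to be detected in at least 5 arrays, so the brighter hormone fixed the direction of these probes. The 16 genes were MGC25972, Cyp4a12, Cyp2d9, Cyp2u1, Mup5, OTTMUSG00000000231, Gstp1, Elovl3, Alas2, Scp2, Ephx2, Aox3, Chpt1, C9, Gm4956 and Ttc39c. The 17 genes included Cyp2b9, Cyp2b23, Cyp17a1, Fmo1, Sult3a1, Gstm2, Cux2, Prlr, Esr1, Ctsc, Gas6, Nt5e, Tm6sf2, Eci3, Trim80 and BC014805. The array XY- estradiol 5 fell in the testosterone range for 36 of the 37 probes. With it included only the probe of Eci3 still parted the hormones (0.00927%). No testosterone array detected that probe, so its gap of 0.13 sets estradiol against background. The separation array by array thus rests on leaving that array out, whereas the difference of means does not.

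Cyp4a12, a male-biased fatty acid omega-hydroxylase, had log2 levels of 10.78, 11.84 and 12.58 (lowest, median and highest of 20 testosterone arrays) and 4.58, 5.05 and 7.69 in 19 estradiol arrays. The groups stood far apart, and blank arrays (4.60 to 8.15) lay with estradiol, where the probe was detected in 36.8% of arrays. The difference was 6.36 ± 0.15 (SE), with a limma adjusted p of 8.72e-30; since most estradiol arrays were at background, its size is not exact. The probe listed as MGC25972, which the array table does not describe, ran from 12.55 to 13.82 (median 13.36) with testosterone and from 4.36 to 8.34 (median 5.75) with estradiol. Its gap of 4.21 between the lowest testosterone and the highest estradiol array was the widest of all tested probes, and its difference was 7.31 ± 0.20 (SE, limma adjusted p = 1.54e-27), with detection in 52.6% of estradiol arrays. With the array XY- estradiol 5, the differences were 6.06 for Cyp4a12 and 6.96 for MGC25972, and the ranges of both overlapped.

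Hsd3b5, a 3-ketosteroid reductase of the hydroxysteroid dehydrogenase family and a marker of male liver, was tight with testosterone and spread out with estradiol. Its levels were 11.15, 12.28 and 12.95 with testosterone and 4.50, 7.14 and 11.19 with estradiol, so the ranges touched. The difference was 5.34 ± 0.23 (SE, limma adjusted p = 1.23e-20), and blank arrays ranged from 4.83 to 7.36. With the array XY- estradiol 5 it was 4.99. Cyp2d9, a steroid hydroxylase, was also more spread with estradiol: 12.06, 12.87 and 13.55 with testosterone, and 6.11, 9.74 and 11.30 with estradiol. The ranges did not meet, and the difference was 3.89 ± 0.25 (SE, limma adjusted p = 2.53e-15). Srd5a1, a steroid 5-alpha-reductase, was higher with testosterone by 1.58 ± 0.18 and Cyp7b1, an oxysterol and steroid 7-alpha-hydroxylase, by 1.40 ± 0.12.

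The major urinary proteins, pheromone carriers made by the liver and passed into urine, were all higher with testosterone. The 5 tested members were called: Mup5 by 2.23, Mup4 by 2.17, Mup1 by 0.58, Mup3 by 0.55 and Mup2 by 0.30. Mup5 levels were 12.61, 13.29 and 13.80 with testosterone and 9.36, 10.98 and 12.47 with estradiol, without overlap. OTTMUSG00000000231, which the array table lists with the synonym Mup, was higher by 3.70 ± 0.12 (SE, limma adjusted p = 7.96e-25). Mup genes are close copies of each other, so a probe may read several of them, and the smaller differences of Mup1 and Mup2 cannot be assigned to single genes.

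Other leading transcripts had other roles. Elovl3, a fatty acid elongase, was detected in every testosterone array (6.18, 7.07 and 8.76) and in no estradiol or blank array, where the highest values were 5.32 and 4.71. It was at least 3.15-fold higher with testosterone. The bound sets testosterone against the dimmest signal that counts as detected, since a probe not detected has no level of its own. Alas2 was higher by 2.56 ± 0.11 (SE, limma adjusted p = 1.13e-20), with 9.56, 10.47 and 10.90 against 7.002, 7.88 and 8.64. Alas2, the heme synthesis enzyme best known from red cell precursors, was the 1 called member of 5 tested erythroid markers; Hba-a1 (0.06), Hbb-b1 (0.39), Klf1 (0.07) and Slc4a1 (-0.31) were not called. Another of them was called as well when XY- estradiol 2, XY- estradiol 4 or XX estradiol 4 was left out. Gstp1, a glutathione S-transferase, had levels of 8.06, 8.72 and 9.37 with testosterone and 4.44, 5.90 and 7.62 with estradiol, a difference of 3.00 ± 0.18. Its 3 probes, all higher with testosterone, differed in size, from 0.84 at the brightest to 3.00. C6, a late complement component, was higher by 2.42 ± 0.15 and Gm4956 by 2.80 ± 0.17.

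**Figure D2:**
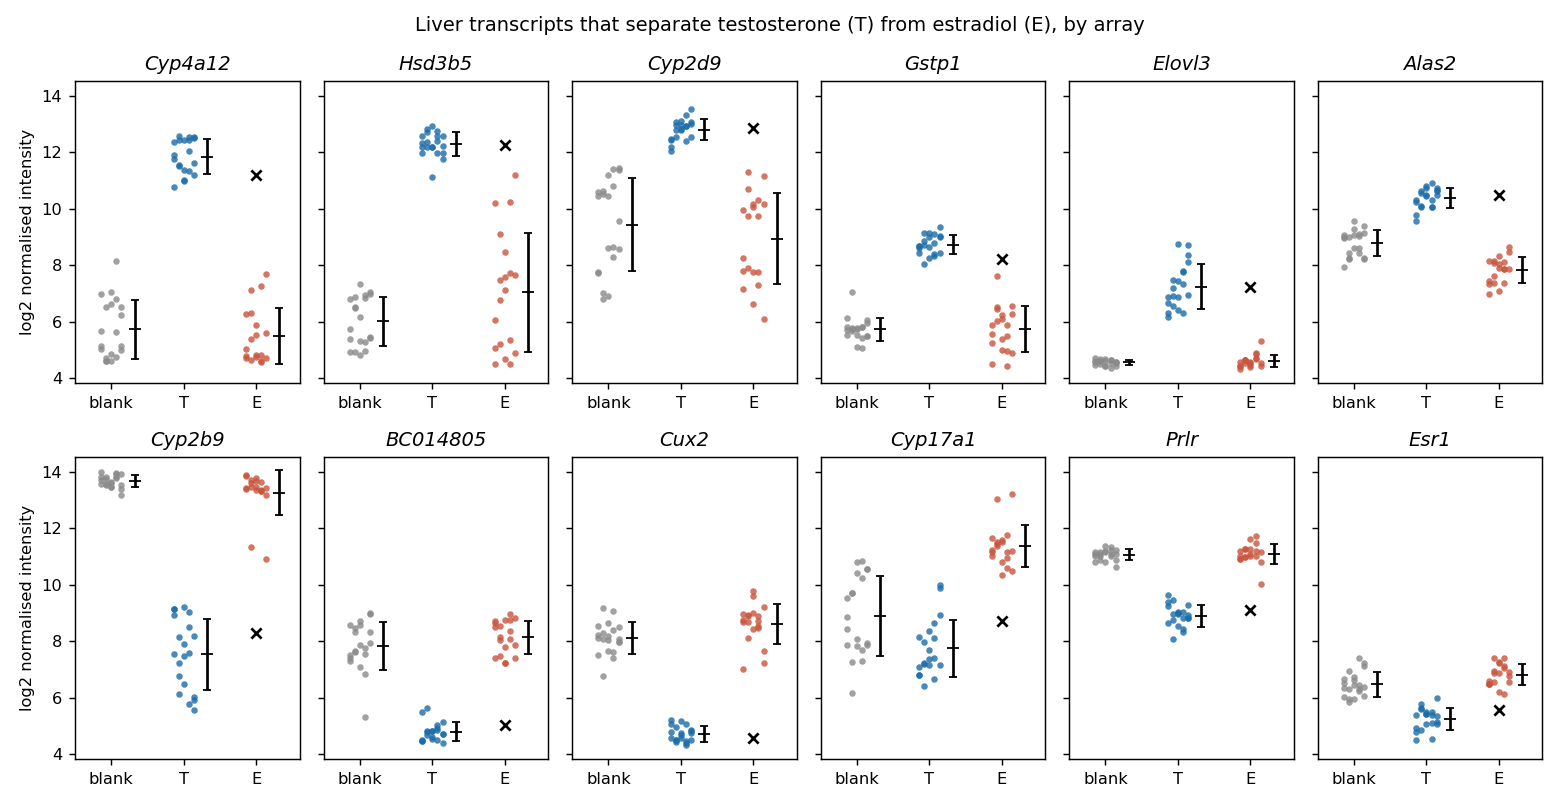
Log2 normalised intensity of 12 transcripts in liver arrays with blank (grey, 20 arrays), testosterone (blue, 20) and estradiol (red, 19) capsules; bars are the mean and SD, and the cross is the array XY- estradiol 5, left out of the comparison. The top row is higher with testosterone and the bottom row with estradiol; the blank arrays of Cyp4a12, Gstp1 and Elovl3 lie with estradiol, those of Cyp2b9, Prlr and Cux2 as well, and the cross lies with testosterone in most panels.

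Among the named transcripts higher with estradiol, Cyp2b9 differed most. The Cyp2b enzymes are cytochromes P450 of drug and steroid metabolism, and the size of the difference varied between them. Cyp2b9 levels were 5.56, 7.58 and 9.20 with testosterone and 10.89, 13.42 and 13.87 with estradiol. The groups did not overlap, and the blank arrays, at 13.19 to 13.97, were as high as most estradiol arrays. The difference was -5.71 ± 0.30 (SE), or 52.2-fold higher with estradiol on the scale of intensities with 16 added (limma adjusted p = 5.5e-18), and -5.48 with the array XY- estradiol 5. Cyp2b13 had 4.42, 4.95 and 8.82 with testosterone and 6.93, 10.63 and 12.80 with estradiol, a difference of -5.24 ± 0.36, with overlap and with detection in 15% of testosterone arrays. Cyp2b23 (listed as EG243881) had 4.73, 6.29 and 7.66 against 8.90, 11.47 and 12.05, a difference of -4.92 ± 0.23, without overlap. Cyp2b10, the member best known for induction through CAR (Nr1i3), was higher with estradiol (-1.79), while Nr1i3 itself was not called (9.70 median with testosterone, 9.97 with estradiol, limma adjusted p = 0.0813).

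Cyp2b9 and Cyp2b13 are near copies of each other in the stretch before their starts. The 250 bases before each start, from RefSeq on GRCm38.p6, are given 5′ to 3′ on the gene's strand, with capitals at the positions where the copies differ. Cyp2b9 lies on the plus strand (chr7:26173159-26173408) and Cyp2b13 on the plus strand (chr7:26061245-26061494).
Cyp2b9: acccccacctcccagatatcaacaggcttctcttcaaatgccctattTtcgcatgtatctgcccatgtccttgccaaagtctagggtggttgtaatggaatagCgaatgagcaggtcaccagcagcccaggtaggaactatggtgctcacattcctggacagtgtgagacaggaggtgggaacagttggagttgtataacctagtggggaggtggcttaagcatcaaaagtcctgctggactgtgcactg
Cyp2b13: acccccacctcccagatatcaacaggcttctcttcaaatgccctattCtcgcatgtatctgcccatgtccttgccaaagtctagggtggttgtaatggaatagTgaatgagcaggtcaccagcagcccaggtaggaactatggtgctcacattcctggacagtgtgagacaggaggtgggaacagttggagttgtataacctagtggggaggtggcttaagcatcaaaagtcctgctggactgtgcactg
They were identical at 248 of 250 bases (99.2%). Counted from the first base printed, the changes from Cyp2b9 to Cyp2b13 were T48C and C104T. Probe sequences were not used here, so signal shared between Cyp2b probes was not tested, and the 3 differences are not independent observations.

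Cyp17a1, the steroid 17-alpha-hydroxylase and lyase, had 6.41, 7.39 and 9.999 with testosterone and 10.35, 11.24 and 13.21 with estradiol, without overlap. The difference was -3.63 ± 0.25 (SE, limma adjusted p = 2.69e-14). Unlike Cyp2b9, it lay in between with blank capsules, at 6.16 to 10.85. A1bg, a secreted plasma protein, was detected in 10% of testosterone arrays (4.35, 4.69 and 6.62) and in every estradiol array (5.64, 9.45 and 13.01). The measured difference was -5.01 ± 0.31, and -4.79 with the array XY- estradiol 5, against levels mostly at background with testosterone. Its level in blank arrays went with Sry: 9.51 to 13.45 in XX and 10.44 to 12.05 in XY-, and 4.86 to 6.63 in XXSry and 5.20 to 6.15 in XY-Sry. Acot3, an acyl-CoA thioesterase of peroxisomes, was higher with estradiol (-3.35 ± 0.31), and its blank arrays (11.21 to 12.66) were above most estradiol arrays (8.82, 10.95 and 11.91). Sult3a1, a sulfotransferase, was detected in no testosterone array and in 94.7% of estradiol arrays, which makes it at least 2.74-fold higher with estradiol. Nt5e, the ectoenzyme that makes adenosine from AMP (-2.57 ± 0.13), was also without overlap, as was BC014805 (-3.36 ± 0.13), which was detected in 5.00% of testosterone arrays and mostly at background there.

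Of the 68 probes at least 2-fold higher with testosterone, the blank mean was nearer the estradiol mean for 60 and below both hormones for 21. Serpina1e, a serine protease inhibitor, was 1 case: 14.59 ± 0.21 in testosterone arrays, 13.61 ± 0.81 in estradiol arrays and 11.96 ± 0.73 (SD) in blank arrays. Of the 138 probes at least 2-fold higher with estradiol, the blank mean was nearer estradiol for 91 and above both for 18. Both hormones are set against the same blank arrays here, so these counts are a description.

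Regulators of growth hormone signalling and of liver sex bias were called in both directions. Of 23 tested, 4 were higher with testosterone and 7 with estradiol, where 8.91% and 11.4% of all probes were. Their median was -0.17 against 0.03 for all probes. Of the 22 detected in at least 5 arrays of each hormone, 4 and 6 were called in these directions. On slides 4 and 6 alone 7 were called, and on the other slides alone 7. Bcl6, the male-biased repressor, had levels of 7.90, 9.72 and 11.21 with testosterone and 6.84, 7.95 and 10.27 with estradiol, which overlap, and was higher with testosterone by 1.65 ± 0.29 (SE, limma adjusted p = 4.11e-05). Cux2, the female-biased transcription factor, was detected in no testosterone array and in every estradiol array (6.998, 8.72 and 9.79), at least 8.21-fold higher. Bcl6 and Cux2 are known to act on sex-biased genes in opposite ways. Cux2 passed the filter on dim probes through estradiol arrays alone, which fixes its direction, so the 2 genes cannot show a pattern here.

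The prolactin receptor gene Prlr was 8.06, 8.94 and 9.64 with testosterone and 10.02, 11.07 and 11.73 with estradiol, without overlap, a difference of -2.19 ± 0.12 (SE, limma adjusted p = 1.75e-17). Socs2 (-1.24 ± 0.18) and Cish (-1.03 ± 0.32), feedback inhibitors of cytokine receptors and targets of STAT5, were higher with estradiol, as were Stat5a (-0.51), Igfals (-0.41) and Igf1 (-0.40). Igf1 encodes the main growth factor made in response to growth hormone, and its shift was small on levels of 12.60 to 13.24 and 12.67 to 13.58. Foxa1 (0.50), Igfbp2 (0.68) and Cux1 (0.35) were higher with testosterone. The calls of Cux1 and Igfals were near the threshold, and each was lost in over 20 of the 39 fits with 1 array left out (24 and 21). The growth hormone receptor Ghr (0.25, limma adjusted p = 0.12), Jak2 (-0.14), Hnf4a (0.07), Foxa2 (-0.17), Foxa3 (0.15), Onecut2 (-0.03), Rxra (0.19), Nr1i2 (0.34), Socs3 (-0.44), Igfbp1 (-0.24) and Igfbp3 (-0.37) were not called.

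Esr1, the gene of estrogen receptor alpha, had 4.51, 5.37 and 6.00 with testosterone, where 30% of arrays detected it, and 6.15, 6.86 and 7.40 with estradiol. The groups did not overlap, and the difference was -1.57 ± 0.12 (SE, limma adjusted p = 6e-13). In blank arrays Esr1 ranged from 5.85 to 7.40, close to the estradiol arrays.

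Genes listed as male- or female-biased in mouse liver followed their names. These lists draw on knowledge of sex-biased liver genes and were drawn up with earlier results of these samples known, so they are no independent evidence of direction. All 20 tested male-biased genes were higher with testosterone, with a median of 1.66, and 17 of 19 tested female-biased genes were higher with estradiol, with a median of -1.94. The 2 not called were Fmo2 (-0.03) and Cyp39a1 (-0.01). Some members passed the filter on dim probes through the hormone where they were high, which fixes their direction. Of the 18 male-biased and 13 female-biased members detected in at least 5 arrays of each hormone, 18 and 11 were called in these directions. On slides 4 and 6 alone 20 and 17 members were called. Further members were Nat8 (2.30), Selenbp2 (2.30), Susd4 (2.40), Ugt2b1 (1.66) and Slco1a1 (1.60), higher with testosterone, and Hamp2 (-1.94), Abcd2 (-1.74), Vldlr (-1.31) and Ntrk2 (-0.71), higher with estradiol.

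**Figure D3:**
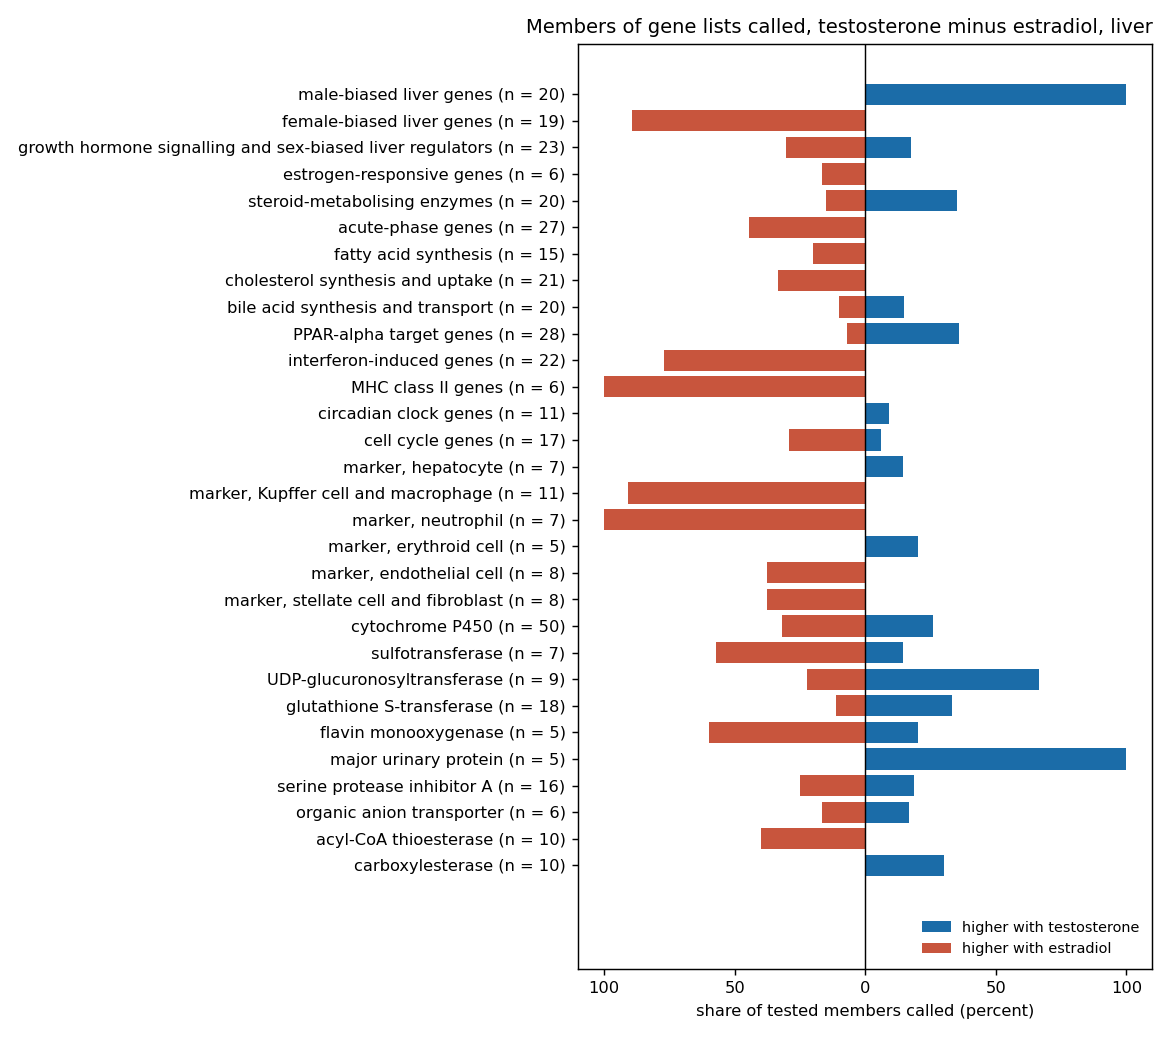
Share of the tested members of each gene list (n in brackets, lists with at least 5 tested) that were called higher with testosterone (blue, right) or with estradiol (red, left). The male-biased list is called in full to the right (20 of 20), the female-biased list to the left (17 of 19), and the macrophage, interferon and MHC class II lists to the left only; 6 of the 7 neutrophil members passed the filter through estradiol arrays alone; over all tested probes 8.91% were called to the right and 11.4% to the left.

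Families of detoxifying enzymes were divided between the hormones. Of 50 cytochrome P450 genes tested, 13 were higher with testosterone and 16 with estradiol, with a median of -0.01. Of the 44 detected in at least 5 arrays of each hormone, 12 and 11 were called in these directions. Over all tested probes, 8.91% were called higher with testosterone and 11.4% with estradiol. On slides 4 and 6, 18 P450 genes in all were called. Beside those already named, Cyp2d13 (0.85), Cyp2c55 (0.86) and Cyp8b1 (0.93) were higher with testosterone, and Cyp2g1 (-1.76) and Cyp2a5 (-0.68) with estradiol. Of the main drug-metabolising forms, Cyp3a11 was higher with testosterone by 0.27, while Cyp2e1 (0.06) and Cyp1a2 (0.17) were not called. Of 9 UDP-glucuronosyltransferases, 6 were higher with testosterone, led by Ugt2b1, Ugt2b5 (1.01) and Ugt2b35 (0.99), and Ugt1a2 (-1.73) and Ugt1a10 (-0.42) were higher with estradiol. Of 7 sulfotransferases, 4 were higher with estradiol and 1, Sult2a8, with testosterone (1.23). Of the 5 detected in at least 5 arrays of each hormone, 3 and 1 were called in these directions. On slides 4 and 6, 5 glucuronosyltransferases were called, and on the other slides 3 sulfotransferases and 5 glutathione S-transferases. Of 18 glutathione S-transferases, 6 were higher with testosterone, among them Gsta1 (1.62) and Gstp2 (1.06), and Gstm2 (-0.81) and Gstt3 (-0.73) with estradiol.

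In lipid metabolism the lists showed smaller differences. Of 28 tested PPAR-alpha targets, 10 were higher with testosterone, where 8.91% of all probes were. Among them were Angptl4 (0.67), Creb3l3 (0.67) and Cpt2 (0.35), regulators and an enzyme of fatty acid use. Acot3 and Acot4 (-1.42) were higher with estradiol. On slides 4 and 6, 6 members were called, and on the other slides 5. Of 21 genes of cholesterol synthesis and uptake, 7 were higher with estradiol, led by Mvd (-1.15), Sqle (-0.76) and Hmgcs1 (-0.65), where 11.4% of all probes were. This count was 2 on slides 4 and 6, and 1 with slide as a block, a fit that takes its differences from the same slides. It was 3 under median scaling, 13 without the array XY- estradiol 2 and 14 without it and XX estradiol 1. Bile acid genes included Cyp8b1, the sterol 12-alpha-hydroxylase, and the uptake transporter Slco1a1 higher with testosterone, and Cyp7a1, the rate-limiting enzyme, was not called (-0.47). Of 15 fatty acid synthesis genes 3 were called, a share near the 20.3% of all probes: Elovl5 (-0.41), Acly (-0.38) and Dgat2 (-0.30), all higher with estradiol; 1 was called on slides 4 and 6, and 7 without XX estradiol 1 and XY- estradiol 2.

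Transcripts of immune cells were higher with estradiol. Of 11 tested Kupffer cell and macrophage markers, 10 were called, all toward estradiol, with a median of -0.99, and 8 of the 9 detected in at least 5 arrays of each hormone were among them. They included the complement chains C1qc (-1.20) and C1qb (-1.17), Cd68 (-1.18), Vsig4 (-1.13) and Clec4f (-1.10), a lectin of Kupffer cells. C1qc levels were 8.08, 9.26 and 10.28 with testosterone and 9.60, 10.30 and 11.71 with estradiol, with overlap. Their mean level was 7.29 ± 0.34 in the 20 testosterone arrays, 8.16 ± 0.52 in the 19 estradiol arrays and 7.58 ± 0.47 (SD) in the 20 blank arrays. All 6 MHC class II genes, which present peptides to T cells, were higher with estradiol, led by H2-DMa (-1.32) and H2-Eb1 (-1.15), and so were 17 of 22 interferon-induced genes, led by Gbp2 (-1.56), Igtp (-1.39) and Cxcl9 (-1.21). The list medians were largest in XX. They were -2.02 there for MHC class II, -1.75 for macrophage markers and -1.03 for interferon-induced genes. In the other genotypes they were -0.53 to -0.94, -0.59 to -0.72 and -0.41 to -0.86. In whole liver, more cells of a type and more RNA per cell cannot be told apart. Endothelial markers were called toward estradiol in 3 of 8 cases and stellate cell markers in 3 of 8, beside 11.4% of all probes, and neither list had a call on slides 4 and 6.

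Acute-phase genes, which the liver raises in inflammation, were higher with estradiol for 12 of 27 tested, beside 11.4% of all probes. Their median was -0.34 over all genotypes, -1.04 in XX and -0.94 in XY-, but 0.02 in XXSry and -0.13 in XY-Sry. Of the 23 detected in at least 5 arrays of each hormone, 10 were called higher with estradiol. On the slides with 1 hormone alone 4 were called. Lcn2, an iron-siderophore binding protein, had levels of 5.84, 7.02 and 12.77 with testosterone and 7.60, 9.95 and 14.80 with estradiol, with wide overlap. The difference was -2.86 ± 0.58 (SE) (limma adjusted p = 0.000254). Its estradiol levels by genotype were 10.99 to 14.67 in XX and 8.80 to 14.80 in XY-, and 7.95 to 8.88 in XXSry and 7.60 to 13.59 in XY-Sry. The test of this dependence on gonad did not pass for Lcn2 (limma adjusted p = 0.109). The metallothioneins Mt1 (-1.69) and Mt2 (-1.59), Orm2 (-1.64), Apcs (-1.62) and Saa3 (-1.49) were higher with estradiol. The fibrinogen chains Fga (-0.01), Fgb (-0.22) and Fgg (-0.10) and haptoglobin Hp (-0.07) were not called at their brightest probes. Of the 2 tested Fga probes, 1 was called higher with estradiol.

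The arrays with the highest Lcn2, XX estradiol 1 and XY- estradiol 2, also had the 2 lowest estradiol levels of Cyp2b9, 10.89 and 11.34. Their part in the other results was measured by leaving both out. Then 2256 probes were called, 980 higher with testosterone and 1276 with estradiol, and 52 did not overlap between hormones.

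Whether the hormone difference depended on the sex chromosomes or on the gonads a mouse had carried was tested next. For sex chromosomes (XX and XXSry against XY- and XY-Sry), limma called no probe, with 286 at an unadjusted p under 0.05 and a smallest adjusted p of 0.9996. A count of 0 does not show that the differences were equal. For gonad (with against without Sry), 41 probes (0.380%) were called, with 1103 at an unadjusted p under 0.05. In 36 of the 41 the difference between hormones was larger without Sry, and 13 had opposite signs. This count moved widely: it was 4 with the array XY- estradiol 5, 13 under median scaling, 3 on slides 4 and 6, 73 with slide as a random block, 26 without the arrays XX estradiol 1 and XY- estradiol 2, and 16 to 73 when 1 array was left out.

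**Figure D4:**
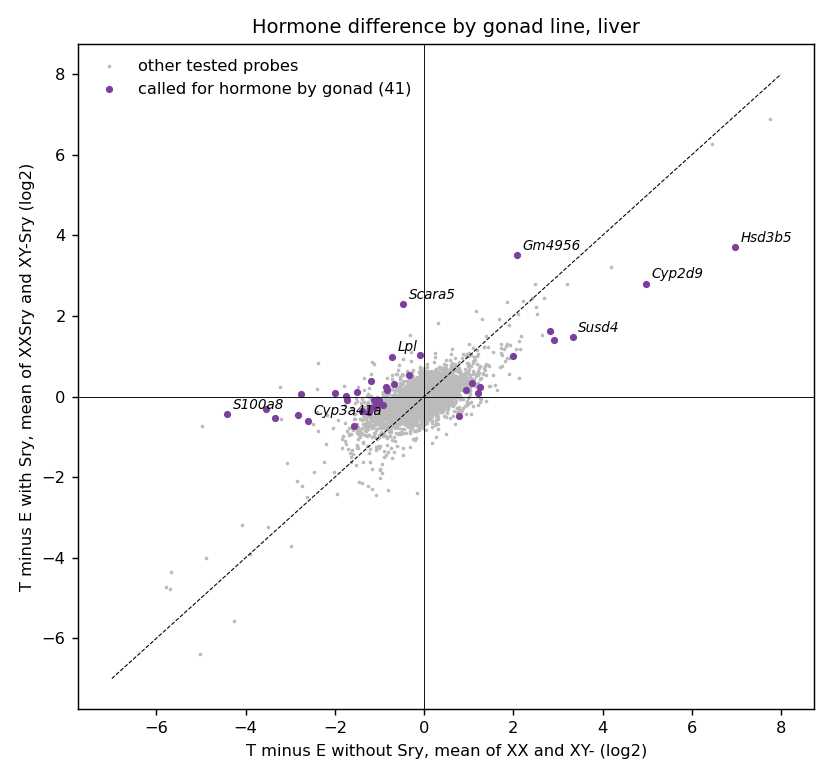
Log2 difference, testosterone minus estradiol, of each tested probe in genotypes without Sry (horizontal, mean of XX and XY-) and with Sry (vertical, mean of XXSry and XY-Sry); purple points are the 41 probes called for the dependence on gonad and the dashed line marks equal differences. Of the purple points, 36 are farther from 0 on the horizontal axis, Hsd3b5 (6.96 and 3.71) and S100a8 (-4.42 and -0.44) among them.

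Hsd3b5 differed by 6.96 without Sry and 3.71 with it, a change of -3.25 ± 0.47 (SE, limma adjusted p = 0.000145). This call rests on leaving out the array XY- estradiol 5, which was recognised by this gene: with it the change was -2.56 ± 0.78 and was not called (limma adjusted p = 0.312). Testosterone levels were alike in the 4 genotypes, from 12.01 ± 0.57 in XY-Sry to 12.48 ± 0.22 (SD, n = 5) in XX, while estradiol levels were 5.53 ± 0.91 in XX (n = 5), 5.30 ± 1.47 in XY- (n = 4), 9.85 ± 1.06 in XXSry (n = 5) and 7.16 ± 0.72 in XY-Sry (n = 5). All 5 XXSry estradiol arrays (8.47 to 11.19) lay above every estradiol array without Sry (4.50 to 7.5), and above their blank counterparts (4.99 to 7.36). Cyp2d9 (-2.18 ± 0.50, limma adjusted p = 0.0335), Mup4 (-1.51, 0.018), Mup5 (-1.20, 0.0318) and Susd4 (-1.86, 0.000769) changed the same way. With the array XY- estradiol 5 only 4 probes in all were called for gonad, Lpl and S100a8 among them. The calls of Cyp2d9, Mup4, Mup5 and Susd4 were thus not all kept. That array had Cyp2d9 (12.87) and Mup5 (13.19) levels within the testosterone range. Cyp2d9 in XX was 6.11 to 7.92 with estradiol and 6.93 to 9.59 with blank, and in XXSry 9.97 to 11.15 and 10.44 to 11.40. Male-biased transcripts as a list had medians of 1.88 in XX, 1.97 in XY-, 0.99 in XXSry and 1.73 in XY-Sry.

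Neutrophil markers could be compared for 1 gene only. Of 7 tested, 6 were detected in fewer than 5 testosterone arrays and passed the filter through estradiol arrays, so their direction was fixed; the other was S100a8. S100a8, a calcium-binding protein of neutrophils, differed by -4.42 without Sry and -0.44 with it, a change of 3.97 ± 0.55 (SE, limma adjusted p = 0.000145), and 3.56 with the array XY- estradiol 5 (limma adjusted p = 0.0116). Its estradiol levels were 10.44 to 13.15 in XX and 8.08 to 12.62 in XY-, above every testosterone array of those genotypes (5.75 to 7.25), but 5.8 to 6.59 in XXSry and 7.16 to 8.93 in XY-Sry. Ltf, lactotransferrin of neutrophil granules, was detected in no testosterone array and was at least 1.84-fold higher with estradiol over all genotypes. Its estradiol levels were 7.65 to 9.19 in XX and 4.45 to 5.09 in XXSry. The mean level of the 7 markers ranged from 4.68 to 5.44 with testosterone, from 4.81 to 9.40 with estradiol and from 4.66 to 6.78 with blank.

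Lpl, the lipoprotein lipase that releases fatty acids from circulating triglyceride, turned its direction with gonad. It was higher with estradiol without Sry (-0.71) and higher with testosterone with Sry (0.99), a change of 1.70 ± 0.25 (SE, limma adjusted p = 0.000166), and 1.62 with the array XY- estradiol 5 (limma adjusted p = 0.00161). In XX its levels were 9.76 to 10.51 with testosterone and 10.57 to 11.41 with estradiol, and in XXSry 10.44 to 11.19 and 8.83 to 10.34, without overlap in either. Averaged over genotypes it was not called (0.14, limma adjusted p = 0.465). Cyp3a41a, a female-biased cytochrome P450, changed by 2.002 ± 0.36 (limma adjusted p = 0.00351), with a difference of -2.60 without Sry and -0.60 with it, on a probe detected in no testosterone array.

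**Figure D5:**
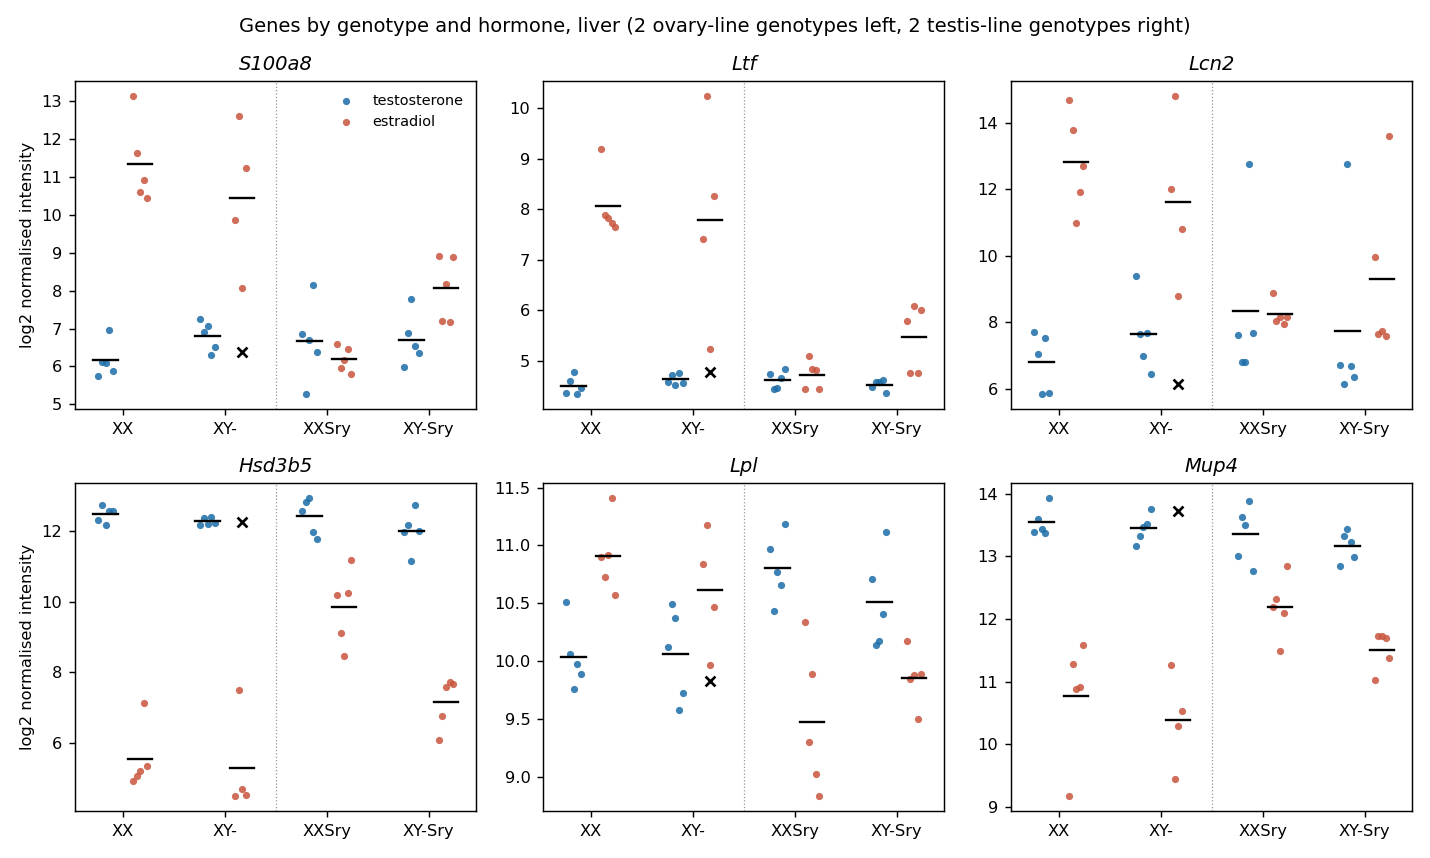
Log2 normalised intensity of 6 transcripts by genotype with testosterone (blue, 5 arrays per genotype) and estradiol (red, 5 per genotype and 4 in XY-); lines are means and the cross is the array XY- estradiol 5. The estradiol arrays of S100a8, Ltf and Lcn2 are high in XX and XY-, those of Hsd3b5 and Mup4 are higher on average in XXSry than in XX, and Lpl is higher with estradiol on the left and with testosterone on the right.

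Promoter sequence was examined because STAT5 and Esr1 are among the factors known to act on sex-biased genes in liver. The genes taken were the 38 that led the comparison (the largest differences and those without overlap), of which 24 matched 29 promoters of 300 bases in RefSeq on GRCm38.p6, from 250 bases before to 50 after the start. The STAT5-type motif TTCNNNGAA, which reads the same on both strands, was present in 8.30% of all 32851 promoters and in 5 of the 29 (17.2%). These were the promoters of A1bg, Ctsc, Esr1, Prlr and Sult3a1, which were all higher with estradiol, and it was in 5 of 20 promoters of genes higher with estradiol and 0 of 9 of genes higher with testosterone. Esr1 and Prlr have further promoters in the table without it. An estrogen response element (GGTCA and TGACC 3 bases apart, the same on both strands) was in 0.07% of all promoters and in none of the 29. The motif TGTTTAC of FOXA factors, searched on both strands, was in 3.65% of all promoters and in 1 of the 29. A match of letters is not a site, and these windows leave out distal elements.

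The promoters of A1bg and Sult3a1 are shown as examples picked from the 5 with the STAT5-type motif, which capitals mark. Both genes were near background with testosterone. So were Cux2, Trim80 and Eci3, whose promoters do not have the motif, so no link between the motif and a low level is shown. A1bg is on the minus strand (chr15:60921271-60921520), with the motif starting at base -84 from the start of the gene, and Sult3a1 on the plus strand (chr10:33857472-33857721), with the motif starting at -109. Each gives the 250 bases before the start, 5′ to 3′ on the gene's strand.
A1bg: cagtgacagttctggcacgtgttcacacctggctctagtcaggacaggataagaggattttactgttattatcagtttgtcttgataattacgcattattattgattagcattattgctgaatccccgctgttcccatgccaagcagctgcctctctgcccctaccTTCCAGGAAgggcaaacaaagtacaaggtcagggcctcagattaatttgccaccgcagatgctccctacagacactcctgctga
Sult3a1: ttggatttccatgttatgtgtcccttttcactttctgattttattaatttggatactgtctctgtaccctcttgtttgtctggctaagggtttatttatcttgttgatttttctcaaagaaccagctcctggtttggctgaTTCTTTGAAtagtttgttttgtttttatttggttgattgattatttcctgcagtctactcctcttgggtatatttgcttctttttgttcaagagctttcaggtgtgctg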

How the data were processed

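Liver RNA was hybridised to Illumina BeadChips, 1 colour per array. Per the file headers, the deposited values are, for each probe, a linear bead signal intensity and a p-value of detection. The submitters' processing notes name lumi, but the deposited intensities kept unequal medians and a floor of 89.1, so they were taken as not normalised. The 60 columns of bead standard errors were not used here. Background was corrected by normexp with negative controls inferred from detection (limma's nec, offset 16), and all 60 liver arrays were quantile normalised and taken to log2 (limma 3.58.1, R 4.3.3). Small differences of dim probes are understated by this offset. A probe was tested if detected (p under 0.01) in at least 5 of the 40 arrays. A mean per group of genotype and hormone was fitted with lmFit and eBayes, on 31 residual degrees of freedom, and p-values were adjusted by Benjamini-Hochberg over all 10787 tested probes, threshold 0.05. The labels do not name the mouse behind an array, so the spread between arrays may be partly technical, and replicate numbers only name an array. The precision is limited by the number of arrays.

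Named genes were the 10 largest called differences each way with 1 sign in all genotypes, the 5 widest gaps each way, the 2 largest called members each way per list, steroid receptors and growth hormone regulators, and the 3 smallest interaction p-values; further list members are quoted as examples. A list reads a gene at its brightest probe. Some genes that the rule names are not reported here. Members and lists were chosen with earlier results of these data known. Symbols were updated through RefSeq (10475 of 10787 tested probes, 97.1%). The fit was tested on simulated data. Alternatives changed the scaling, background, filter, slide, spread model and arrays; those on slides 4 and 6 without a block, and without the arrays XX estradiol 1 and XY- estradiol 2, were added after seeing the data.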

Additional observations from a re-analysis of the deposited data

Results flagged for a closer look

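In groups of 4 or 5 arrays, the array farthest from the rest was compared with the range of its group (Dixon's test at 95%) for the leading genes. The 168 tests also took in the median raw intensity and the share of probes detected of each array. An array stood apart in 20 tests, all of leading genes, where chance gives about 1 in 20. The tests share arrays and are not independent. XY- estradiol 2 stood apart in 5 genes: Cyp2d9 at 11.3 (others 6.64 to 7.31), MGC25972 at 7.94, Hsd3b5 at 7.5, Cyp4a12 at 6.32, all above its group, and Cyp2b9 at 11.34, below it (others 13.3 to 13.45). XX estradiol 1 stood apart in 4 genes: Cyp2b9 at 10.89 (others 13.31 to 13.6), Cyp2b23 at 8.9, Cyp2d9 at 6.11, all below, and Cyp17a1 at 13.21, above. XY-Sry estradiol 1 was below its group for C6 (6.49), Cyp2d9 (8.25) and OTTMUSG00000000231 (9.51). Other estradiol arrays apart from their groups were XX 2 for Cyp4a12 (5.05), XX 4 for Hsd3b5 (7.14), XY- 1 for Gm4956 (5.17) and XXSry 5 for A1bg (7.78). Among testosterone arrays, XXSry 1 was above its group for Cyp2b13 (8.82), XY- 1 was above for A1bg (6.62) and below for C6 (8.57), and XX 5 was above for Nt5e (7.68).

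The hormone difference changed with gonad, by the test of the interaction, for Hsd3b5 (-3.25), Lpl (1.7) and S100a8 (3.97). The Hsd3b5 call was lost with the array XY- estradiol 5.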

How the results depend on the processing

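A named probe was counted as reversed if it changed sign and was called in the main fit or the alternative. None of the 102 reversed under the alternatives that did not leave out 1 array in turn. The stricter filter kept 94 of them, and calls were lost most on slides 4 and 6 (22 probes). Including XY- estradiol 5 gave 1 probe without overlap and 4 gonad calls. Median scaling gave 599 probes higher with estradiol and 13 gonad calls. Gonad calls were 12 without a filter, 22 with detection required in 20 of the 40 arrays, 73 with slide as a random block and 26 without XX estradiol 1 and XY- estradiol 2. Slide as a fixed block, where the differences come from slides 4 and 6, called 1302 probes (527 higher with testosterone, 775 with estradiol). Slides 4 and 6 called 1036 (392 and 644), with 214 probes without overlap and 3 gonad calls, and without the block 1029 (387 and 642), with 214 and 4. Slides with 1 hormone called 1204 (494 and 710), with 61 and 2. Fewer arrays enter these fits; the cause of the other shifts was not tested.

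With each array left out in turn, called probes ranged from 2019 to 2283 (859 to 1024 higher with testosterone, 1146 to 1259 with estradiol), probes without overlap from 37 to 47, called list members from 189 to 203 and sex chromosome calls stayed at 0. Gonad calls ranged from 16, without XY- testosterone 4, to 73, without XY- estradiol 3. They were 18 to 27 without XXSry testosterone 1 (19) or 5 (18), XXSry estradiol 2 (25) or 5 (27), XY-Sry testosterone 3 (21), XY-Sry estradiol 2 (21) or 4 (19), XY- estradiol 2 (21), XX testosterone 1 (27) or XX estradiol 1 (24). The interactions ranged from -3.62 to -3.08 for Hsd3b5, 1.61 to 1.81 for Lpl and 3.61 to 4.37 for S100a8. No paired analysis was possible because replicate numbers were assigned here and pair no arrays. Dim probes limit folds: 4 probes without overlap were not detected in any testosterone array and 2 not in any estradiol array.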
